A study of Mus musculus with 5 samples.

Results

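The 7 genes described here were the mouse globins of the alpha and beta clusters, Hba-a1, Hba-a2 and Hba-x of the alpha cluster and Hbb-bs, Hbb-bt, Hbb-bh1 and Hbb-y of the beta cluster. They were chosen by symbol, and all 7 were among the 32285 genes of the count files. The samples were dissociated whole lungs of embryos at E18.5 (late gestation), with 2 libraries from Zswim8+/- embryos (Het1 and Het2) and 3 from Zswim8-/- embryos (KO1, KO2 and KO3), 1 library per embryo. ZSWIM8 is the substrate receptor of a Cullin ubiquitin ligase that acts on Argonaute bound to microRNAs in target-directed microRNA degradation, and the comparison asked how its loss changed RNA levels in single cells. There was no wild-type group, so every control also lacked 1 intact Zswim8 allele, and the strain and the design of the allele were not given in the sources used here. All suspensions were exposed to red blood cell lysis buffer for 1 minute before loading, which bears on every red-cell count below.

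Haemoglobin is a tetramer of 2 alpha-type and 2 beta-type chains, each holding a haem group. Primitive red cells, which arise in the yolk sac and circulate in the early embryo, first use the embryonic chains zeta (Hba-x), beta-h1 (Hbb-bh1) and epsilon-y (Hbb-y). Primitive cells later add adult globins and lose their nuclei in the circulation. Definitive red cells made by the fetal liver use the adult chains alpha and beta. The alpha genes are Hba-a1 and Hba-a2, a gene duplication with nearly the same protein, and the adult beta genes are Hbb-bs and Hbb-bt. A lung at this stage is perfused with blood, so its libraries hold red cells that differ in age and origin.

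The alpha genes were on chromosome 11 and the beta genes on chromosome 7, all of them protein coding (GENCODE M21, GRCm38). On the forward strand of chromosome 11 the order was Hba-x (ENSMUSG00000055609, chr11:32276400-32278116), Hba-a1 (ENSMUSG00000069919, chr11:32283511-32284465) and Hba-a2 (ENSMUSG00000069917, chr11:32296489-32297298). On the reverse strand of chromosome 7 it was Hbb-y (ENSMUSG00000052187, chr7:103851749-103853216), Hbb-bh1 (ENSMUSG00000052217, chr7:103841637-103843164), Hbb-bs (ENSMUSG00000052305, chr7:103826534-103828096) and Hbb-bt (ENSMUSG00000073940, chr7:103812524-103813996). In both clusters the embryonic genes came first in the direction of transcription and the adult pair last.

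The promoters are shown because the adult and embryonic genes were read out as separate groups, and because the near identity of the adult pairs limits how their RNA can be told apart. Each line gives the 120 bases before the transcription start in RefSeq (GRCm38.p6), 5′ to 3′ on the strand of the gene, and 6 of the 7 genes had an entry. Capitals mark the short motifs searched on both strands, which were CACCC (bound by KLF1-type factors), the CCAAT box, the motif GATAA (bound by GATA factors), and the TATA-box forms ATATAA and ATAAAA.
Hba-a1 (chr11:32283552-32283671, forward strand): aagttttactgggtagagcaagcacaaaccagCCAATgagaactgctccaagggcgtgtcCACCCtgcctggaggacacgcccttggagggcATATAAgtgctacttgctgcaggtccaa
Hba-a2 (chr11:32296372-32296491, forward strand): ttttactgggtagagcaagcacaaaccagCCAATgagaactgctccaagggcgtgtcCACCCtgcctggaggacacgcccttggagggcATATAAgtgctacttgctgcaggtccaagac
Hba-x (chr11:32276480-32276599, forward strand): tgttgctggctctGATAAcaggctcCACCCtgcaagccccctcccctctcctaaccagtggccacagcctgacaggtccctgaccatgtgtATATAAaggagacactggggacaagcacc
Hbb-bs (chr7:103827929-103828048, reverse strand): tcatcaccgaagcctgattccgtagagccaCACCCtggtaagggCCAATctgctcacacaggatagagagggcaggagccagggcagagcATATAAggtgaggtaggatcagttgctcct
Hbb-bt (chr7:103813924-103814043, reverse strand): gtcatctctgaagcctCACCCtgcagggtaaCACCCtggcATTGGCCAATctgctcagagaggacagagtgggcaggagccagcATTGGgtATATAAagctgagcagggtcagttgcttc
Hbb-y (chr7:103853208-103853327, reverse strand): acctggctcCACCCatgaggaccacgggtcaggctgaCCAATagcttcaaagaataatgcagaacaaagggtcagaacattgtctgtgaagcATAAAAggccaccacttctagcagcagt

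CACCC was found in 6 of the 6 promoters, against 31.7% of the 32851 mouse promoters of the same length, and CCAAT in 5 of 6, against 21.3%. Hba-x was the promoter without CCAAT, and the one with GATAA, which 10.5% of all promoters held. ATATAA was in 5 of 6, against 4.47%, and Hbb-y had ATAAAA in its place, a form found in 8.30%. The promoters of Hba-a1 and Hba-a2 matched at 117 aligned bases with 0 mismatches, since the windows were only offset. Those of Hbb-bs and Hbb-bt matched at 91 bases with 27 mismatches, and those of Hbb-bs and Hbb-y at 68 bases with 36 mismatches. These matches are descriptions of the sequence and say nothing of binding.

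The transcripts set how far the adult pairs can be separated. Over their aligned bases the Hba-a1 and Hba-a2 transcripts had 537 identical bases and 1 mismatch, which lay 123 bases from the 3′ end of Hba-a1 and 139 bases from that of Hba-a2. Only 51.6% of the 150-base windows of Hba-a1 and 34.3% of those of Hba-a2 were found in no other member. Of the Hbb-bs windows 41.3% were unique and of the Hbb-bt windows 49.3%, and those transcripts were 92.7% identical where they aligned. Hba-x, Hbb-bh1 and Hbb-y had no window in common with another member. The treatment of reads that match both copies of a pair was not given in the sources used here, so the split between Hba-a1 and Hba-a2, and in part that between Hbb-bs and Hbb-bt, is uncertain. The measurement counted 3′ ends of molecules as unique molecular identifiers (UMIs), so counts were not divided by gene length.

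The 5 files held 50355 barcodes (8722 to 13539 per library) and 56608582 to 93708304 UMIs per library, and 269 barcode sequences occurred in a pair of libraries. No filter on barcodes by the submitters was given in the sources used here. Zswim8 itself was at 29.2 to 35.9 CPM (UMI counts per 1000000 UMIs of the library, called unscaled CPM below) in the 5 libraries and was not lower in the KO libraries, but 3′ tags outside a deleted stretch check nothing and the allele was not given. Read from Xist and Y-linked UMIs, Het1, Het2 and KO3 were male and KO1 and KO2 female. No Het library was female, so with sex as a covariate the genotype effect rests on KO3 against Het1 and Het2.

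Barcodes were divided into 3 classes, and 11292 of the 50355 fell outside all of them. Erythroid cells had at least 500 genes, at most 15% mitochondrial UMIs and at least 5 of 11 measured erythroid markers (Alas2, Slc4a1 and others, no globin), more than of any other lineage. They numbered 5 in Het1, 2 in Het2, 43 in KO1, 7 in KO2 and 6 in KO3. Red-cell barcodes had under 500 genes and over 50% of UMIs from haemoglobin genes, so their summed globin level was fixed by the choice, while the proportions among globins were not. They numbered 6596 in Het1, 4195 in Het2, 1865 in KO1, 3972 in KO2 and 3163 in KO3. Other cells, 3033 to 4739 per library, had at least 500 genes, under 5 erythroid markers and at most 50% haemoglobin UMIs. The erythroid markers summed to 2399.6 to 8556 unscaled CPM in erythroid cells, where they were part of the choice. In red-cell barcodes, where they were not, the sum was 1044 to 1326, with Epor at 0 in 1 library, and in other cells 16.4 to 33.7. Erythroid cells were not free of other markers. Immune markers summed to 126 to 307 unscaled CPM there, with a UMI in 34.9% to 100% of the cells of a library. Epithelial markers summed to 0 to 307, in 0% to 66.7% of cells. The ranges were 0 to 164 for mesenchymal, 0 to 115 for endothelial and 0 to 115 for megakaryocyte markers. Red-cell barcodes also held markers of other lineages at low levels, with 12 epithelial markers summing to 144 to 386 unscaled CPM there against 1687 to 2399.9 in other cells. The 12 immune markers summed to 121 to 321 against 4699 to 6443, the 12 mesenchymal markers to 88.0 to 190 against 2758 to 7064, and the 12 endothelial markers to 57.1 to 154 against 879 to 1283. The 12 megakaryocyte markers summed to 19.5 to 43.8, with up to 6 of them at 0. No epithelial, immune, mesenchymal or endothelial marker was at 0 in the red-cell barcodes of any library.

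Adult globins made up nearly all globin RNA in these lungs. Summed over all barcodes, the 4 adult members had 56611623 UMIs and the 3 embryonic members 10688. Hbb-bs was the gene with the most UMIs in each of the 5 libraries, and Hba-a1 was next in each. Totals were 27780653 for Hbb-bs, 12278114 for Hba-a1, 10379042 for Hba-a2 and 6173814 for Hbb-bt, then 6703 for Hbb-y, 3843 for Hba-x and 142 for Hbb-bh1. The adult and embryonic members were not found in the same barcodes to the same degree. The red-cell class held 90.7% of adult globin UMIs and 44.5% of embryonic ones, whereas barcodes outside all 3 classes held 3.69% and 43.5%. Erythroid cells held 0.285% of the adult and 0.0374% of the embryonic globin UMIs.

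**Figure D1:**
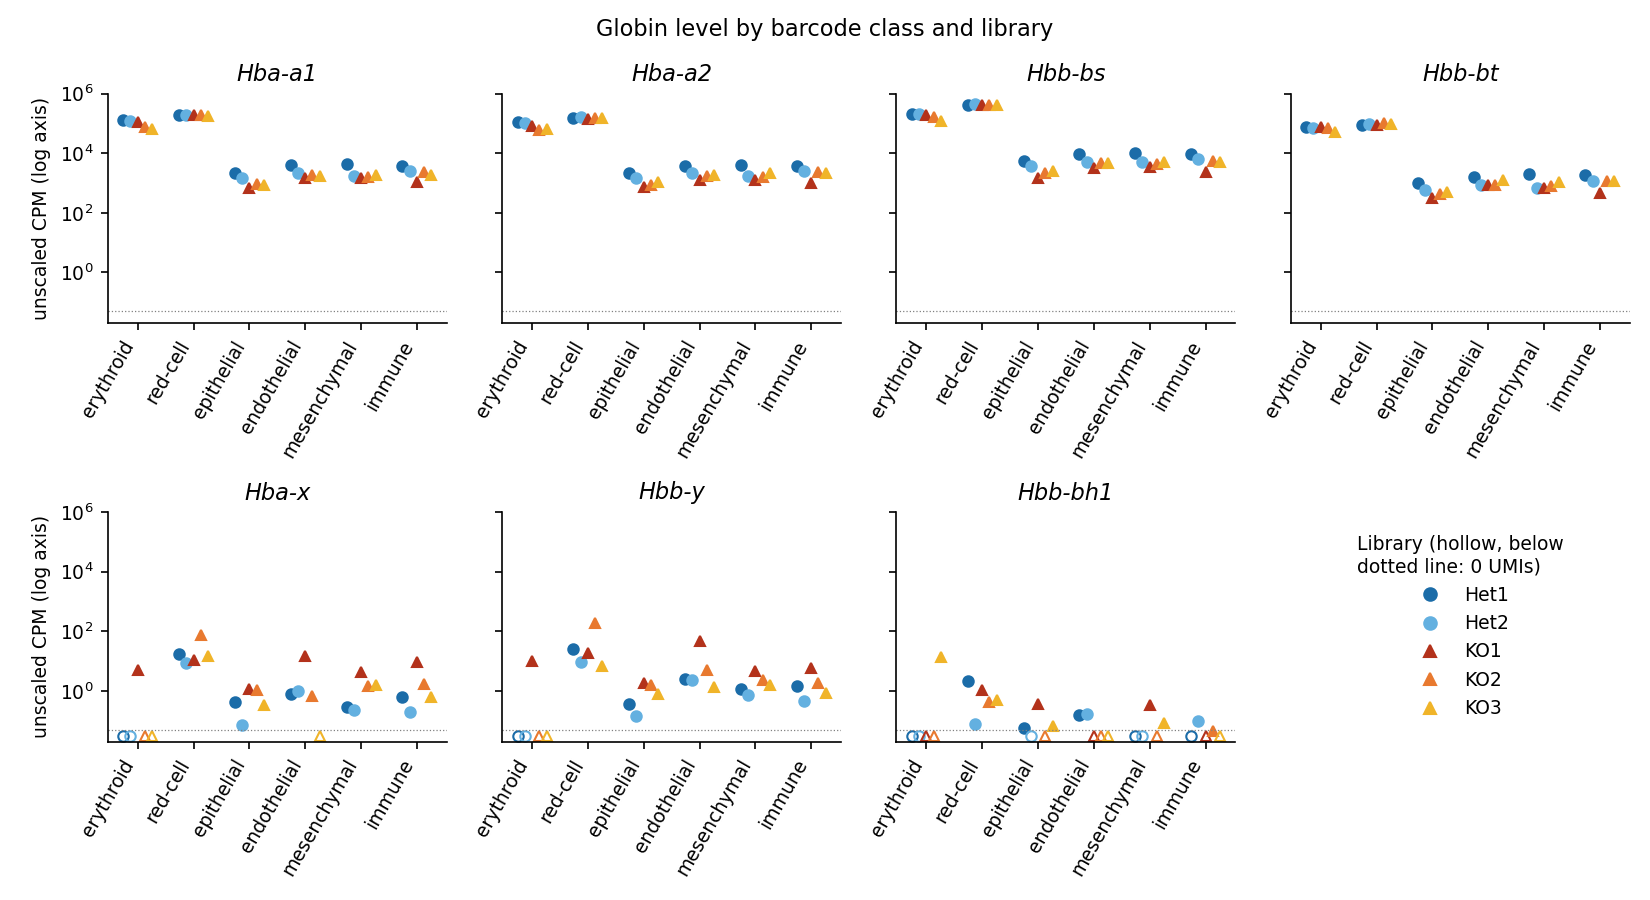
Each panel shows 1 globin in unscaled CPM on a log axis, for erythroid cells, red-cell barcodes and cells of 4 other lineages, with 1 point per library (circles Het, triangles KO). Adult globins sit between 50240.6 and 432442 in erythroid cells and red-cell barcodes, while embryonic globins stay at or below 193, and hollow symbols below the dotted line stand for 0 UMIs.

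In the red-cell class a barcode held a similar amount of each adult globin in all libraries. Hbb-bs was at 1250 UMIs per barcode in Het1, 1347 in Het2, 1186 in KO1, 1271 in KO2 and 1283 in KO3. Hba-a1 was at 560 UMIs per barcode in Het1, 596 in Het2, 560 in KO1, 571 in KO2 and 531 in KO3. For Hba-a2 the values were 470, 491, 418, 466 and 481 UMIs per barcode in the same order of libraries. These 3 genes overlapped between the groups, and KO1 was lowest for Hbb-bs and Hba-a2. Hbb-bt was at 263 UMIs per barcode in Het1, 289 in Het2, 270 in KO1, 307 in KO2 and 303 in KO3, so that KO1 lay between the Het libraries and the other KO libraries lay above both.

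Erythroid cells gave the same order of the adult beta pair on far fewer UMIs. Hbb-bs had 5233 UMIs in Het1, 3102 in Het2, 36674 in KO1, 13567 in KO2 and 8880 in KO3, and Hbb-bt had 2018, 1071, 14378, 5774 and 3591. Hba-a1 had 3298, 1743, 21425, 6298 and 4447 UMIs and Hba-a2 2903, 1545, 15584, 5174 and 4452, so the alpha pair was near equal in KO3 only. These totals rest on 2 to 43 cells and mainly follow the number of cells. Embryonic globins were almost absent there, with 4 UMIs in the 63 erythroid cells. They were 1 Hba-x UMI and 2 Hbb-y UMIs in KO1 and 1 Hbb-bh1 UMI in KO3. A count of 0 allows embryonic shares of up to 0.0223% of globin UMIs in Het1, 0.0402% in Het2 and 0.00974% in KO2.

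Hbb-bt, the adult beta gene with fewer UMIs, had a larger part of the adult beta RNA in erythroid cells than in red-cell barcodes, in every library. The Hbb-bs share of Hbb-bs and Hbb-bt UMIs in erythroid cells was 72.2% in Het1 (exact Clopper-Pearson 95% interval 71.1 to 73.2), 74.3% in Het2 (73.0 to 75.7), 71.8% in KO1 (71.4 to 72.2), 70.1% in KO2 (69.5 to 70.8) and 71.2% in KO3 (70.4 to 72.0). In red-cell barcodes it was 82.6%, 82.3%, 81.4%, 80.6% and 80.9%, with intervals under 0.1 percentage points wide. These and all later intervals and limits cover counting error only. Within a library the share was lower in erythroid cells by 9.62 percentage points on average (71.9% against 81.6%, SD of the difference 0.994, n = 5 libraries, lower in 5 of 5). The exact sign-flip permutation test over the 5 libraries gave p = 0.063, two-sided and the smallest it can give, and 0.156 after adjustment over 5 ratios. When erythroid cells were taken instead as barcodes with at least 500 genes and over 50% haemoglobin UMIs, the difference was -4.43 percentage points.

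The 2 alpha ratios differed less between the classes. The Hba-a1 share of Hba-a1 and Hba-a2 averaged 53.8% in erythroid cells and 54.8% in red-cell barcodes (exact sign-flip permutation p = 0.1875, 5 libraries). Libraries kept their places at the ends of this ratio: it was highest in KO1 in both classes (57.9% and 57.3%) and lowest in KO3 in both (49.97% and 52.4%). Het1 had 53.2% and 54.4%, Het2 53.0% and 54.8%, and KO2 54.9% and 55.1%. The alpha share of all 7 globins averaged 42.2% in erythroid cells and 39.8% in red-cell barcodes, higher in erythroid cells in 4 of 5 libraries (exact sign-flip permutation p = 0.1875). The exception was KO2, with 37.2% in erythroid cells and 39.6% in red-cell barcodes. Without the largest erythroid cell of each library, the mean class difference was -2.17 percentage points for the Hba-a1 share and 5.27 for the alpha share.

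**Figure D2:**
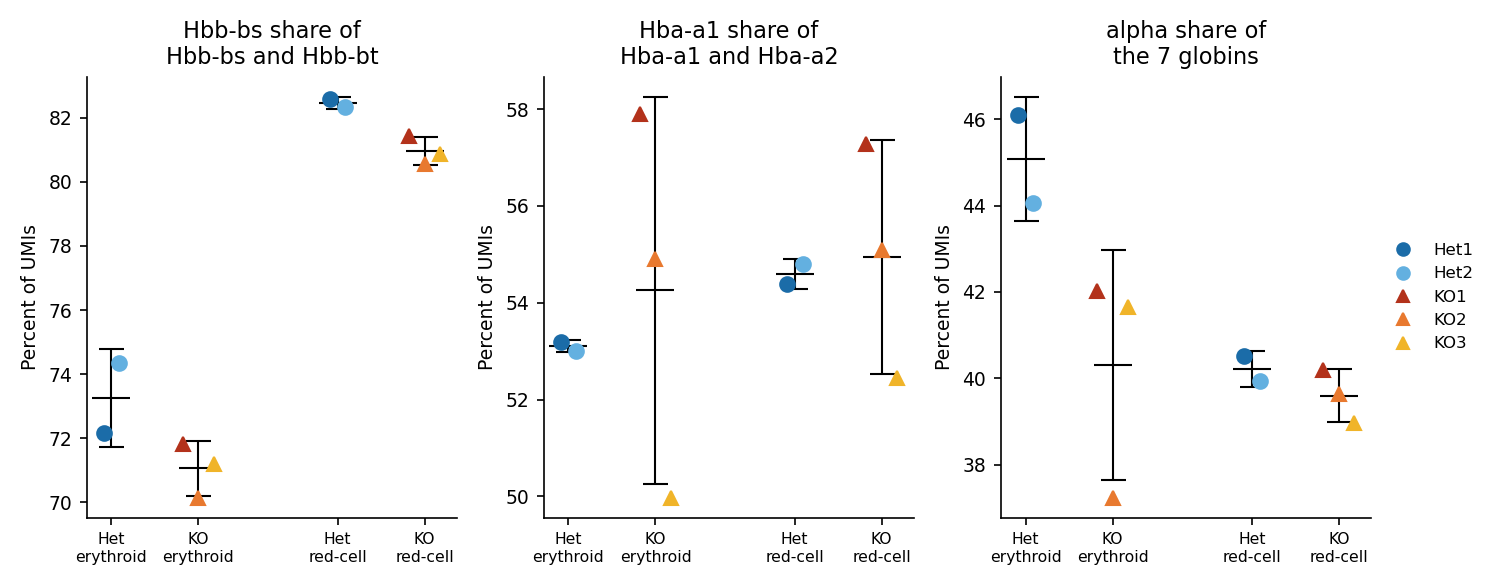
The panels plot 3 ratios as percent of UMIs for the 2 Het (circles) and 3 KO (triangles) libraries in erythroid cells and red-cell barcodes, with horizontal lines for group means and bars for SD; the axes do not start at 0. The Hbb-bs share lies between 70.1% and 74.3% in erythroid cells and between 80.6% and 82.6% in red-cell barcodes, and KO1 and KO3 mark the ends of the Hba-a1 share in both.

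Within the red-cell class the beta ratio moved with the amount of globin in a barcode. Barcodes were divided by their globin UMIs, a split chosen after the values were seen and described without a test. Hbb-bt made up 7.85% of adult beta UMIs in barcodes with up to 500 globin UMIs (mean of 5 libraries, range 6.20% to 9.44%) and 8.50% in those with 500 to 1000 (7.55% to 9.62%). Its share was 11.2% at 1000 to 2000 globin UMIs (9.66% to 12.7%), 16.6% at 2000 to 4000 (15.01% to 17.9%), 22.8% at 4000 to 8000 (21.6% to 23.8%) and 27.3% above 8000 (26.1% to 27.9%). From 500 UMIs upwards the ranges of neighbouring bins did not overlap, and every library climbed from bin to bin. The bins above 8000 UMIs held 28 to 70 barcodes per library, and their share of Hbb-bt was close to that of erythroid cells, which had 2048 to 4402 globin UMIs per cell. Genes per barcode moved with the bins too, from a median of 174.6 in the lowest to 282.5 in the highest (means of 5 libraries), and the median mitochondrial share went from 7.26% to 1.07%. The part of these measures in the course of Hbb-bt was not tested.

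The Hba-a1 share took another course, from 44.5% in the lowest bin to 49.8%, 53.6%, 55.5%, 55.6% and 54.6% in the next ones (means of 5 libraries). It was roughly level above 2000 globin UMIs in each library, and KO1 stayed highest and KO3 lowest in each of the 6 bins. Barcodes in which Hba-a1 made up under 40% of the adult alpha UMIs were 4.09% of red-cell barcodes in Het1, 4.12% in Het2, 1.29% in KO1, 2.14% in KO2 and 9.33% in KO3. They were shallow, with a median of 990 to 1228 UMIs against 2358 to 2788 in the remaining red-cell barcodes. Their median mitochondrial share was 4.99% to 10.1% against 1.79% to 4.76%. The alpha share of all globins was 44.1% in the lowest bin and 38.5% in the highest.

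**Figure D3:**
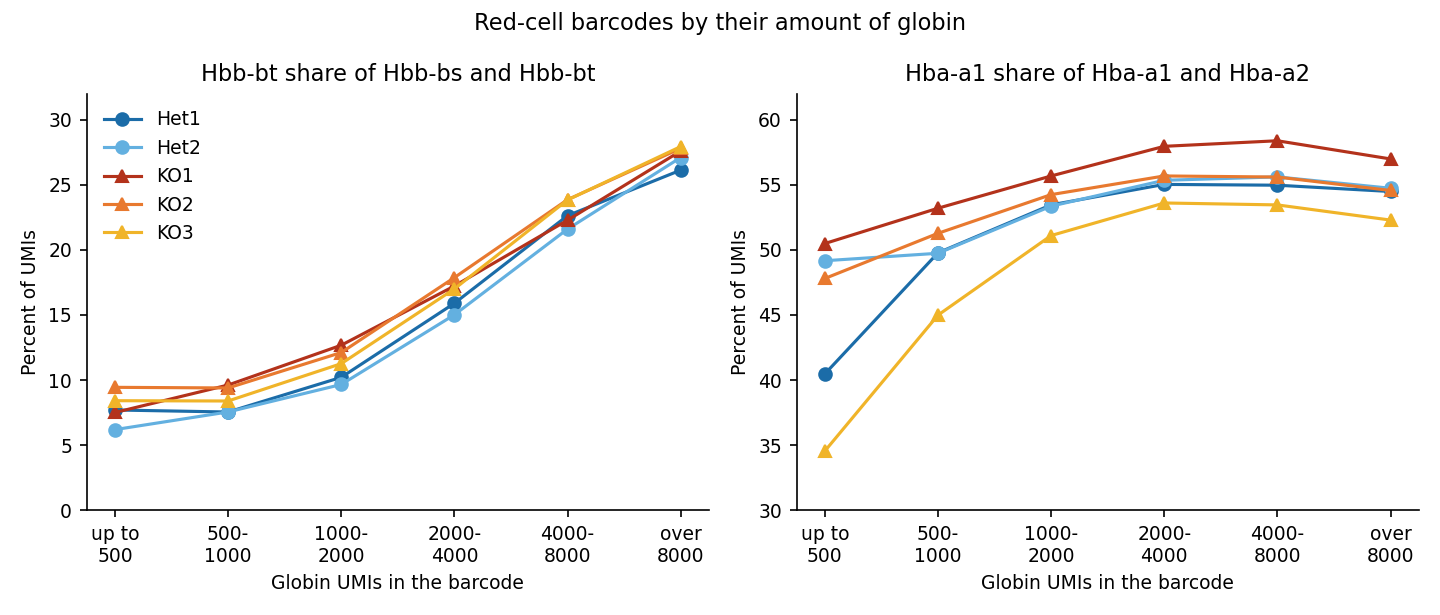
The plot gives, for red-cell barcodes in 6 bins of globin UMIs per barcode, the Hbb-bt share of adult beta UMIs (left, axis from 0) and the Hba-a1 share of adult alpha UMIs (right, axis from 30), with 1 line per library. The Hbb-bt share climbs from 7.85% to 27.3% as the mean of 5 libraries, while the Hba-a1 share levels off above 2000 globin UMIs.

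Embryonic globin RNA was concentrated in few barcodes. A set of 50 barcodes, 0.0993% of all, was taken after the values were seen as those with at least 20 embryonic UMIs that made up at least 10% of their globin UMIs, in any class. They held 8444 of the 10688 embryonic UMIs, or 79.0%. There were 6 in Het1, 2 in Het2, 24 in KO1, 14 in KO2 and 4 in KO3. None of the 50 met the erythroid rule, 11 were red-cell barcodes, 6 were other cells and 33 lay outside the 3 classes, and 43 had under 500 genes. Of those outside the 3 classes, 20 were in KO1. Over 15% of the UMIs were mitochondrial in 22 of the 50.

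Embryonic alpha and beta RNA were mostly found together in these barcodes, which the choice by embryonic UMIs makes likely. Both Hba-x and Hbb-y had at least 1 UMI in 48 of the 50. In some the second gene was near 0, as in a KO1 barcode with 37 Hba-x and 1 Hbb-y UMIs and a KO3 barcode with 59 and 1. The summed UMIs were 5562 for Hbb-y, 3635 for Hba-a1, 2821 for Hba-x, 2437 for Hba-a2, 1089 for Hbb-bs, 275 for Hbb-bt and 61 for Hbb-bh1. The adult chains were not present to the same degree in the 2 clusters: adult genes gave 68.3% of the alpha UMIs but 19.5% of the beta UMIs. In 38 of the 50 barcodes the adult share of alpha exceeded the adult share of beta, and this held for 26 of the 29 barcodes with at least 100 embryonic UMIs. By library it was 6 of 6 in Het1, 2 of 2 in Het2, 16 of 24 in KO1, 11 of 14 in KO2 and 3 of 4 in KO3. The choice by embryonic UMIs, of which 5562 of 8444 were Hbb-y, by itself favours a low adult share of beta. A limit of 100 embryonic UMIs does so further, and these counts are a description without a test.

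The barcode with the most embryonic UMIs in each library is given as an example, and that choice too favours a low adult share of beta. In Het1 it held 427 Hbb-y, 315 Hba-x and 35 Hbb-bh1 UMIs beside 160 Hba-a1, 77 Hba-a2, 14 Hbb-bs and 24 Hbb-bt UMIs. In Het2 it held 101 Hbb-y and 86 Hba-x UMIs beside 60 Hba-a1, 47 Hba-a2, 17 Hbb-bs and 1 Hbb-bt. For KO1 the counts were 206 Hbb-y and 139 Hba-x beside 145 Hba-a1, 81 Hba-a2, 2 Hbb-bs and 5 Hbb-bt. All 3 had more adult alpha than adult beta UMIs. The KO2 barcode had 428 Hbb-y and 124 Hba-x UMIs with 121 Hba-a1, 75 Hba-a2, 9 Hbb-bs and 7 Hbb-bt, and the KO3 barcode 255 Hbb-y and 129 Hba-x with 46 Hba-a1, 21 Hba-a2, 24 Hbb-bs and 4 Hbb-bt.

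In the other 12 barcodes, 8 in KO1, 3 in KO2 and 1 in KO3, the adult share of alpha was below that of beta. In 8 of the 50, Hba-x made up over 80% of the embryonic UMIs, 5 in KO1, 2 in KO2 and 1 in KO3. That choice by itself leaves little embryonic beta, and their adult shares of 39.3% to 100% for beta and 14.0% to 61.4% for alpha are given as a description, on at most 143 embryonic UMIs each. Hbb-bh1, the earliest of the beta genes to be used in development, reached 5 UMIs in only 3 of the 50 barcodes, all in Het1 (35, 11 and 7 UMIs). A Het2 barcode outside the rule held another 31 Hbb-bh1 and 46 Hba-x UMIs with 0 of Hbb-y. It had 9626 UMIs, 2576 genes, 6 of 12 megakaryocyte markers and 408 Hba-a1 UMIs, and its embryonic UMIs were 8.19% of its globin UMIs.

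**Figure D4:**
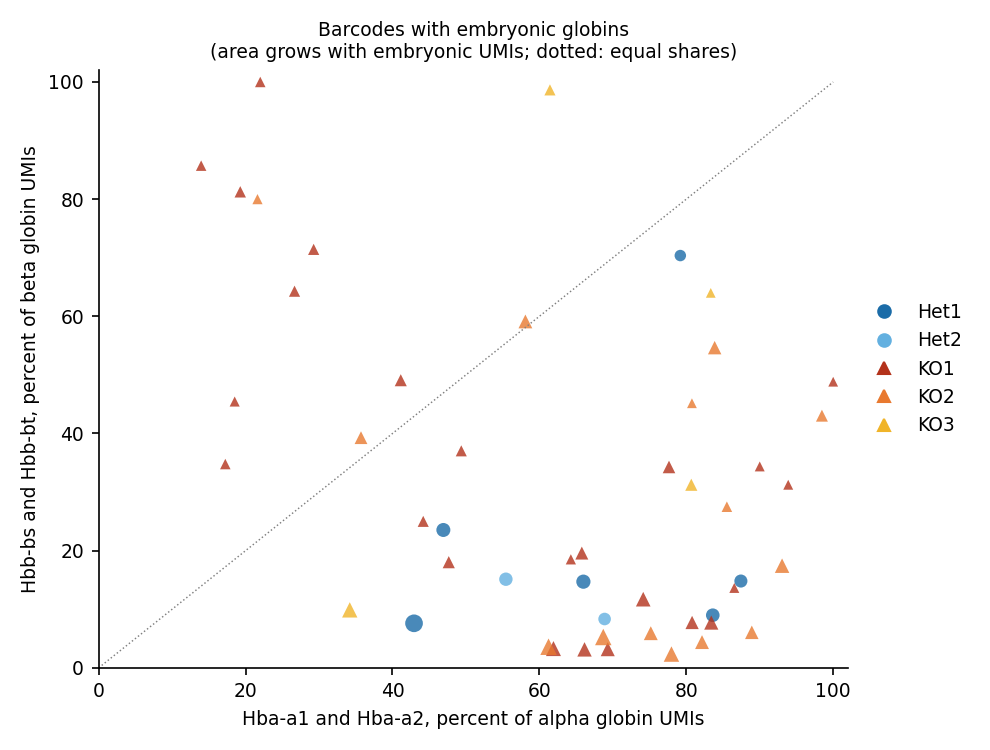
Each point is 1 of the 50 barcodes with embryonic globins, by the adult share of its alpha UMIs (x axis, percent) and of its beta UMIs (y axis, percent), with an area that grows with its embryonic UMIs and the dotted line at equal shares. There are 38 points below the line, and 12 above it, among them the 8 barcodes in which Hba-x dominates the embryonic UMIs.

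The remaining RNA of these barcodes held few UMIs of some haem and maturation genes. In the 43 with under 500 genes, Alas2, the first enzyme of haem synthesis in red cells, had 7 UMIs, where 152 would follow from its share of the non-globin UMIs in the other red-cell barcodes of the same libraries. Slc25a37, the mitochondrial iron importer, had 5 against 66.8, and Bnip3l, which clears mitochondria from maturing red cells, had 7 against 46.6. Ftl1, the ferritin light chain, had 137 against 238 and Car2, a carbonic anhydrase, 7 against 12.2. Others lay above the count that their share would give: Fth1, the ferritin heavy chain, had 249 against 98.2, Foxo3, a transcription factor, had 10 against 1.86 and Btg2 had 9 against 6.15. These 8 were the list genes with at least 5 UMIs in the 43 barcodes, many of these barcodes did not meet the red-cell rule, and no test was made. That limit uses the same count that is compared. A gene with a low expected count, such as Foxo3, could enter only by lying above it, and list genes with fewer UMIs were left out. How many genes lay above or below is therefore no result.

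By the narrower rule of at least 200 globin UMIs with at least 10% of them embryonic, within erythroid cells and red-cell barcodes, 11 barcodes qualified. They were 1 of 6601 in Het1 (0.0151%, exact 95% interval 0.000384 to 0.0844), 1 of 4197 in Het2 (0.0238%, 0.000603 to 0.133) and 9 of 3978 in KO2 (0.226%, 0.104 to 0.429). There were 0 of 1905 in KO1, which allows a share of up to 0.157%, and 0 of 3169 in KO3, which allows up to 0.0947%. The members inside ran from 22.4% to 73.9% embryonic UMIs, and the nearest outside had 8.43% and 6.21%. The group means were 0.0195% ± 0.00614 (SD, n = 2) for Het and 0.0754% ± 0.131 (SD, n = 3) for KO (exact permutation p = 1, two-sided), and without KO2 the difference was -0.0195 percentage points.

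Hbb-y and Hba-x varied more between libraries than any adult globin. Over all barcodes Hbb-y had 1237 UMIs in Het1, 224 in Het2, 2002 in KO1, 2736 in KO2 and 504 in KO3, and Hba-x had 709, 266, 1267, 1191 and 410. Hbb-bh1 had 63, 36, 22, 8 and 13 UMIs. In red-cell barcodes Hbb-y was at 24.6 unscaled CPM in Het1, 9.34 in Het2, 18.8 in KO1, 193 in KO2 and 6.93 in KO3, so that KO2 stood far above the other 4 libraries. Outside the 50 barcodes, an embryonic UMI was found in 0.525% (Het2) to 3.65% (KO1) of red-cell barcodes and in 0.695% (Het2) to 5.61% (KO1) of other cells. Since other cells should lack these genes, a single embryonic UMI in a red-cell barcode was not read as expression.

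For the genotype comparison, UMIs were summed per library and class and tested with edgeR's quasi-likelihood test, in which an adjusted p below 0.05 over all genes tested counts as a call. A group of 2 against a group of 3 has 10 regroupings, so the exact permutation tests of ratios cannot go below p = 0.1. In the erythroid cells 4 of the 7 members, the adult globins, passed the filter on low counts, and none was called, against a background of 0% of the 673 genes tested (117 at an unadjusted p below 0.05, and 3 called by DESeq2, 0.446%). The largest cell of the class weighed heavily in these sums. It held 17.9% of the class UMIs in KO1, 51.7% in KO2 and 48.7% in KO3, with 5 to 8 erythroid markers but a globin share of 0.300%, 0.0739% and 3.77%. In Het1 and Het2 it held 34.3% and 76.3%, with globin shares of 31.9% and 51.0%. The median globin share per cell was 61.9% in Het1, 47.7% in Het2, 48.2% in KO1, 72.6% in KO2 and 44.5% in KO3, so that KO2 was highest, while the share of the summed UMIs was 51.6%, 49.4%, 45.1%, 36.8% and 29.9%. The levels below are those of the sums and do not describe a typical cell. Hba-a2 was at 146995 scaled CPM (per 1000000 UMIs after TMM scaling, the scale of all CPM values from fits) in Het1, 134703 in Het2, 113305 in KO1, 62730.0 in KO2 and 62440 in KO3. Its groups did not overlap, as was so for 41.5% of the genes tested, and its log2 fold change was -0.83 (SE 0.55, edgeR adjusted p = 0.414). Hba-a1 was at 166996, 151965, 155773, 76357 and 62370.0 CPM, with a log2 fold change of -0.70 (SE 0.59, edgeR adjusted p = 0.516), and its groups overlapped. The log2 fold changes of Hbb-bs and Hbb-bt were -0.53 and -0.38, and the median over all genes tested was 0.31. Without the largest cell of each library, which left Het2 with 1 cell, they were 0.65 for Hba-a1, 0.44 for Hba-a2, 1.27 for Hbb-bs and 1.18 for Hbb-bt (edgeR adjusted p 0.826 to 0.928). With at least 8 erythroid markers, or with the rule on haemoglobin UMIs, the 4 adult members also had fold changes above 0. In simulated data of this size 1.68% of genes changed by 1 on the log2 scale were called.

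The ratios in erythroid cells did not separate the genotypes beyond what 5 libraries allow. The Hbb-bs share was 73.3% ± 1.53 for the Het libraries (SD, n = 2) and 71.1% ± 0.854 for the KO libraries (SD, n = 3), without overlap (exact permutation p = 0.1, the smallest possible, adjusted 0.333 over 10 ratio tests). The alpha share of globin was 45.1% ± 1.43 for Het (SD, n = 2) and 40.3% ± 2.66 for KO (SD, n = 3), also without overlap (exact permutation p = 0.1, adjusted 0.333). The Hbb-bs difference of -2.19 percentage points was -1.11 without Het2, and 3.19 without the largest cell of each library. The alpha difference of -4.78 percentage points was -2.26 with at least 8 erythroid markers, -1.17 with the rule on haemoglobin UMIs and -12.6 without the largest cells. For Hba-a1 the shares were 53.1% ± 0.123 (SD, n = 2) and 54.3% ± 4.00 (SD, n = 3), with overlap (exact permutation p = 0.7).

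In red-cell barcodes 63 of 9143 genes were called (0.689%), 7 higher and 56 lower in KO, and none of the 7 members was among them. The adult members had log2 fold changes of -0.38 (Hba-a1), -0.38 (Hba-a2), -0.37 (Hbb-bs) and -0.22 (Hbb-bt), with edgeR adjusted p from 0.860 to 0.916. With library size alone as the scaling these were -0.04, -0.06, -0.04 and 0.10, while the median of all genes moved from 0.02 to 0.39. Hbb-y had the largest fold change, 2.20 on the log2 scale (SE 1.10, edgeR adjusted p = 0.464), and it rested on KO2, at 243 CPM against 24.7, 12.7, 11.7 and 6.52 in Het1, Het2, KO1 and KO3. The groups overlapped for each of the 7 members in this class, where 30.2% of the genes tested did not overlap. Without KO2 the fold change of Hbb-y was -1.06. Hba-x had a log2 fold change of 1.36 (edgeR adjusted p = 0.515) and -0.46 without KO2. Hbb-bh1, at 0.104 to 2.10 CPM, had -1.25 (edgeR adjusted p = 0.517) and turned to 2.27 without Het1.

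The call on the embryonic genes depended on the fit. Without the filter on low counts, edgeR gave adjusted p = 9.57e-14 for Hbb-y and 1.24e-05 for Hba-x in red-cell barcodes, with log2 fold changes of 2.18 and 1.34, and without KO1 it gave 0.0409 for Hba-x. DESeq2, which called 0.536% of the genes, gave an adjusted p of 0.9998 for both.

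The Hbb-bs share in red-cell barcodes was 82.5% ± 0.191 for Het (SD, n = 2) and 81.0% ± 0.440 for KO (SD, n = 3), a difference of -1.50 percentage points without overlap (exact permutation p = 0.1, the smallest possible, adjusted 0.333). It depended on the limit of genes per barcode. With under 300 genes the share was 83.1% in Het1, 82.7% in Het2, 84.4% in KO1, 80.8% in KO2 and 81.7% in KO3, and the difference was -0.54 (exact permutation p = 0.8). KO1 lost 29.97% of its red-cell barcodes by that limit and the other libraries 3.46% to 10.4%. By amount of globin, the mean Hbb-bt share was higher in KO in each of the 6 bins, by 1.17 to 2.08 percentage points, and the groups overlapped in 2 of them. These bins hold parts of the same 5 libraries and are no separate tests. The shares of Hba-a1 (54.6% and 54.9%, exact permutation p = 0.7) and of alpha globins (40.2% and 39.6%, p = 0.4) overlapped.

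Red-cell barcodes were 44.7% ± 5.64 (SD, n = 2) of all Het barcodes and 33.8% ± 11.6 (SD, n = 3) of all KO barcodes, with overlap (exact permutation p = 0.4). Their share was 48.7% in Het1, 40.7% in Het2, 21.4% in KO1, 44.4% in KO2 and 35.7% in KO3, and the lysis step can set it. Barcodes outside the 3 classes were 43.4% of all in KO1, with a median mitochondrial share of 52.3%. In Het1, Het2, KO2 and KO3 they were 16.2%, 18.7%, 18.8% and 19.3%, with medians of 23.4%, 19.6%, 28.3% and 22.6%. The part of these barcodes in the red-cell share was not tested. The red-cell difference of -10.9 percentage points was -4.66 without KO1 and -6.90 without Het1. Erythroid cells were 0.0757% ± 0.0397 (SD, n = 2) of the Het barcodes in which 500 or more genes were detected and mitochondrial UMIs made up no more than 15%, against 0.578% ± 0.690 (SD, n = 3) for KO (exact permutation p = 0.5). The groups did not overlap, with 0.0476% to 0.104% in Het and 0.149% to 1.37% in KO. KO1, at 1.37%, gave most of the difference of the means, which was 0.104 percentage points without it.

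Adult globin RNA was also found in cells of other lineages. The groups did not overlap there for 3 of the 7 members, all adult and lower in KO, beside 46.2% of all genes tested. None of the 7 passed the edgeR test. Globin UMIs were 1.59% of all UMIs of other cells in Het1, 1.01% in Het2, 0.561% in KO1, 0.841% in KO2 and 0.844% in KO3. These sums rested on few barcodes. A cell held 79.1 to 226 globin UMIs on average but 16 to 30 in the median, and the median haemoglobin share was 0.285% in Het1, 0.183% in Het2, 0.157% in KO1, 0.194% in KO2 and 0.172% in KO3, with overlap between the groups. Among cells with at most 10% haemoglobin UMIs, which left out 318 of 4739 in Het1, the globin share of the sums was 0.585%, 0.412%, 0.222%, 0.391% and 0.300% in the same order. Hbb-bs was at 8043 CPM in Het1, 5184 in Het2, 2669.8 in KO1, 4170.1 in KO2 and 4127 in KO3, a log2 fold change of -0.86 (SE 0.25, edgeR adjusted p = 0.114). Hba-a1 was at 3326, 2035, 1233, 1705 and 1488 CPM, with -0.86 (SE 0.22, edgeR adjusted p = 0.0907). Hba-a2 followed with -0.82 (SE 0.25, edgeR adjusted p = 0.120). None of the 3 overlapped between groups, which was so for 46.2% of the 17822 genes tested. Hbb-bt overlapped, with -0.65 (SE 0.27, edgeR adjusted p = 0.211). None of the 7 members was called, against 3.65% of all genes (166 higher and 484 lower), while DESeq2 called Hba-a1 (adjusted p = 0.00162) and not the other adult members (0.0760 to 0.280), where it called 11.6% of the genes. Without Het1 the fold change of Hba-a1 was -0.47 and that of Hbb-bs -0.51.

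In the 4 lineages named by their markers Het1 was highest for Hbb-bs, and the order of the other libraries varied. Hbb-bs was at 5470.3 unscaled CPM in epithelial cells of Het1, 3606 in Het2, 1512 in KO1, 2243 in KO2 and 2540.0 in KO3. For endothelial cells the values were 9595, 5139, 3292, 4609 and 4751. In mesenchymal cells they were 10084, 4936, 3400.0, 4249 and 5031, so that KO3 lay above Het2. Immune cells had 9063, 6315, 2365, 5554 and 5115. Cells rich in haemoglobin carried much of these sums. With at most 10% haemoglobin UMIs per cell, a limit chosen for the lineages after the values were seen, Hbb-bs was at 2382 unscaled CPM in epithelial cells of Het1, 1924 in Het2, 733 in KO1, 1246 in KO2 and 1187 in KO3. Endothelial cells had 3368, 2856, 1331, 2161 and 1666. In mesenchymal cells (2981, 1991, 838, 2535 and 1666) and immune cells (3207, 2228, 1132, 2283 and 1745) KO2 lay above Het2. Het1 was highest and KO1 lowest both in the globin share of other cells and in the red-cell share of barcodes, while KO2 stood above Het2 in the red-cell share and below it in globin. Erythroid markers summed to 16.4 to 33.7 unscaled CPM in these cells. The part of the red-cell share in these values was not tested.

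**Figure D5:**
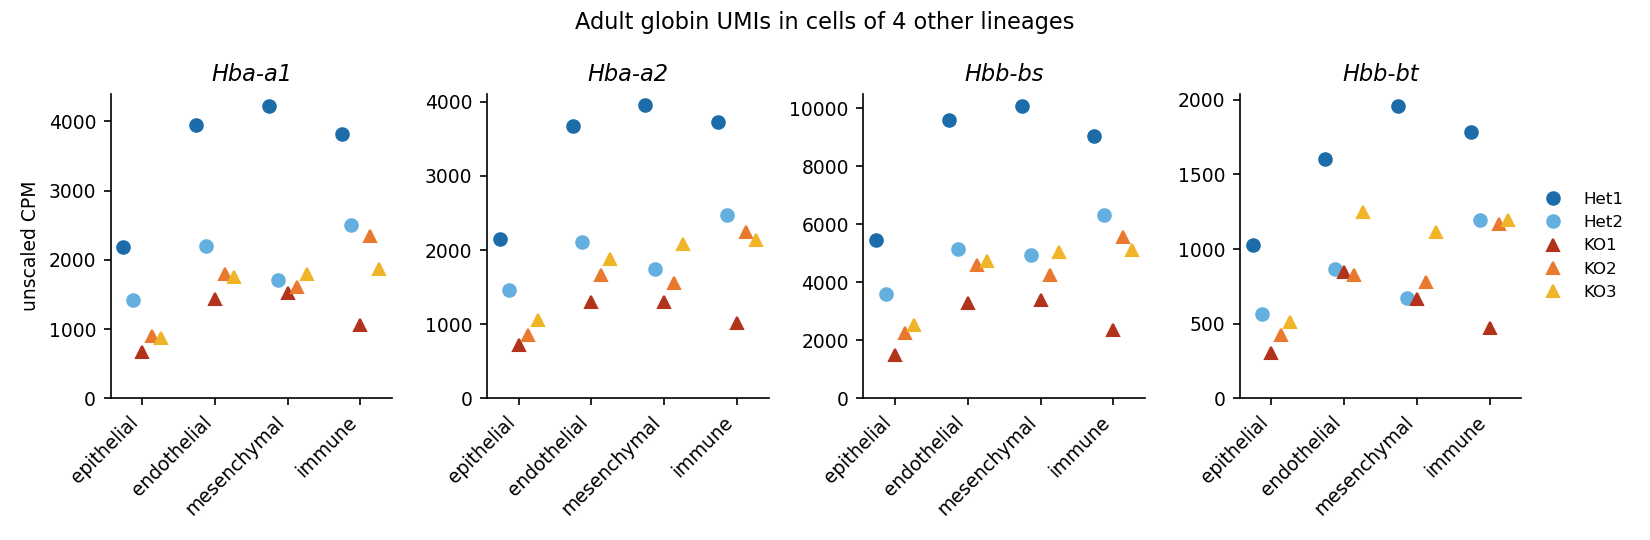
The 4 panels show the adult globins in unscaled CPM (axes from 0) in epithelial, endothelial, mesenchymal and immune cells, 1 point per library (circles Het, triangles KO). Het1 is highest in each lineage for each gene, and for Hbb-bs in mesenchymal cells Het2, at 4936, lies below KO3, at 5031.

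The embryonic genes in other cells were at low levels and led by KO1. Hbb-y was at 1.25 CPM in Het1, 0.581 in Het2, 9.93 in KO1, 2.20 in KO2 and 1.03 in KO3, with a log2 fold change of 2.23 (SE 1.02, edgeR adjusted p = 0.236), and without KO1 it was 0.81. Hba-x had 1.92 (edgeR adjusted p = 0.294) and 0.41 without KO1. Hbb-bh1 had -2.15 (edgeR adjusted p = 0.327), at 0.0185 to 0.535 CPM. KO1 thus led in other cells and KO2 in red-cell barcodes.

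Over all barcodes 633 of 18056 genes were called (3.51%), and none of the 7 members. In such sums, fewer cells of a type and less RNA per cell cannot be told apart. The adult members had log2 fold changes from -0.66 to -0.48 (edgeR adjusted p 0.199 to 0.321). Hbb-bh1 was at 0.727 CPM in Het1, 0.433 in Het2, 0.377 in KO1, 0.113 in KO2 and 0.143 in KO3. It was the only member whose groups did not overlap, as was so for 46.3% of the genes, and had a log2 fold change of -1.51 (SE 0.53, edgeR adjusted p = 0.152). Without KO1 it was -2.16, with an edgeR adjusted p of 0.0474. In Het1, 35 of its 63 UMIs came from 1 barcode, and in Het2 31 of 36 came from the cell with megakaryocyte markers. For Hbb-y and Hba-x the values were 1.62 and 1.33 (edgeR adjusted p = 0.345 and 0.294).

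Genes that act with the globins were followed as lists. In erythroid cells 0 genes of any list were called. Of the 16 genes of haem synthesis and iron supply 12 were tested, with 10 fold changes below 0 and a median of -0.76 on the log2 scale, beside 0.31 over all genes tested. All 10 tested of the 16 red-cell membrane and haemoglobin partner genes were below 0, with a median of -0.78. Of these, 1 haem gene and 5 membrane genes were among the markers that chose the cells. Without them 9 of 11 haem genes (median -0.76) and 5 of 5 membrane genes (-0.78) were below 0. These values too rested on the largest cells: without the largest cell of each library 4 of 11 haem genes (median 0.12) and 6 of 9 membrane genes (-0.04) were below 0, beside 0.19 over all genes tested. Slc4a1, the band 3 anion exchanger, was at 3208 CPM in Het and 1857 in KO, and Alas2 at 2207 and 1150.1 CPM, described without a test since both chose the cells. Tested members of the other lists numbered 4 of 16 regulators (median -1.07), 9 of 12 late maturation genes (-0.33) and 5 of 12 proliferation genes (-1.06). Without the largest cell of each library 1 regulator (-1.24), 8 late maturation genes (median -0.0016) and 1 proliferation gene (1.56) were tested.

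In red-cell barcodes 0 list genes were called as well. Of 14 globin regulators tested there, 13 had fold changes above 0, with a median of 0.57 beside 0.02 over all genes. Red-cell barcodes had a median of 269 genes in KO1, against 185 in Het1, 145 in Het2, 151 in KO2 and 189 in KO3. The part of this difference in the fold changes was not tested. Klf1, the factor that drives adult beta globin transcription, was at 0.510 CPM in Het and 1.87 in KO (log2 fold change 1.84, SE 0.50, edgeR adjusted p = 0.144). Haem genes had 7 of 13 above 0 (median 0.05), membrane genes 10 of 15 (0.07), late maturation genes 6 of 11 (0.00) and proliferation genes 5 of 12 (-0.20).

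Other cells had 5 list genes past the threshold, named after their values were seen. Their levels are sums over several lineages, whose mix differed between the groups. Mesenchymal cells were 4.20% to 5.72% of all barcodes in the Het libraries and 6.46% to 10.1% in the KO libraries. For epithelial cells the ranges were 6.32% to 6.51% and 4.35% to 5.46%, while those of endothelial and immune cells overlapped. The part of this mix in the changes below was not tested. Bcl11a, a repressor of embryonic beta-type globins in red cells that also acts in lymphoid cells, rose from 8.36 to 13.3 CPM (log2 fold change 0.67, edgeR adjusted p = 0.0349). Igf2bp1, an RNA-binding protein of fetal tissues, rose from 18.7 to 28.0 CPM (0.58, edgeR adjusted p = 0.0328). Tfrc, the transferrin receptor, rose from 23.6 to 31.4 CPM (0.42, edgeR adjusted p = 0.0427). Fth1 fell from 6688 to 4313 CPM (-0.63, edgeR adjusted p = 0.0328) and Isg20, an exonuclease, fell from 21.8 to 14.2 CPM (-0.62, edgeR adjusted p = 0.0206). With sex as a covariate, which sets KO3 alone against the Het libraries, the log2 fold changes were 0.68 for Bcl11a, 0.51 for Igf2bp1 and 0.42 for Tfrc. Those of Fth1 and Isg20 were -0.65 and -0.67. None of the 5 passed without Het1, without Het2 or without KO3, and Isg20 alone passed without KO2. Over all barcodes Bcl11a, Igf2bp1, Fth1 and Isg20 were called as well, with log2 fold changes of 0.68, 0.59, -0.64 and -0.67. The remaining members of the lists were not called, which left 2 of 16 regulators, 2 of 16 haem genes, 1 of 11 late maturation genes, 0 of 10 membrane genes and 0 of 12 proliferation genes, beside 3.65% of all genes tested.

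The other genes of the globin fold were rare in red-cell barcodes. Hbq1a, a theta globin of the alpha cluster, had 226 UMIs in Het1, 135 in Het2, 100 in KO1, 145 in KO2 and 137 in KO3, of which 84 to 198 per library were in red-cell barcodes. Hbq1b had 17 to 38 UMIs per library, and Hbb-bh2 was at 0 in all 5. Cygb, cytoglobin of fibroblasts and related cells, had 1642 to 2644 UMIs per library and 7 to 24 of them in red-cell barcodes.

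The genes whose level over 6 classes and 5 libraries (30 points, 5117 genes, log2(CPM + 1)) was most like that of Hbb-bs included Alas2 (Pearson r = 0.98), Rec114 (0.96), Ube2l6 (0.95) and Fech, the last enzyme of haem synthesis (0.94). Points from 1 library share its depth and handling, and the classes themselves were chosen by haemoglobin UMIs and by markers that include Alas2, so these coefficients partly restate that choice. Alas2 averaged 1228 unscaled CPM in erythroid cells, 1028 in red-cell barcodes and 9.07 to 18.2 in the 4 other lineages. The sum of Hbb-y and Hbb-bh1 had no such partners: the highest coefficients were 0.42 for mt-Atp8, 0.40 for Fam220a, 0.39 for Rec114, 0.39 for Gm16867 and 0.37 for F930017D23Rik. More than 1 gene ID carried the symbol Fam220a, and the value is that of ENSMUSG00000118332.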

How the data were processed

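Droplet 3′ single-cell RNA sequencing was done on 5 lung libraries (2 Het, 3 KO), with a target of 10000 cells each and viabilities of 64% to 81%, per the labels' protocols. The deposited files held raw UMI counts for each gene in each barcode. Cell Ranger 4.0.0 and the build mm10 are named in the submitters' processing notes. The annotation, the barcode filter and the treatment of reads matching several genes were not given in the sources used here. Of the 32285 gene IDs 32123 matched GENCODE M21.

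Counts were summed per library over each barcode class, and KO was compared with Het by edgeR 4.0.16 (quasi-likelihood test, TMM scaling, default filter on low counts, Benjamini-Hochberg adjustment, two-sided, in R 4.3.3), with DESeq2 1.42.0 as an alternative. Scaled CPM values follow TMM, and unscaled CPM values divide by the UMIs of the library or class alone. Ratios and shares were tested with exact permutation tests over libraries in scipy 1.17.1. Intervals are Clopper-Pearson at 95%, and a count of 0 was given a limit of 3 counts. No doublet caller was run, and no barcode was removed as a doublet. Sequences were compared with biopython 1.88. Whether the replicate numbers of the labels pair the samples is not known. Correlations of deviations from the group means were -0.06 for Het1 with KO1 and -0.09 for Het2 with KO2. With 2 Het libraries these deviations mirror each other, so the correlations cannot decide it.

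The members, classes and lists were chosen with earlier results of these data known. Named genes were the 7 members, up to 4 called genes of each list in erythroid cells (0 were called), and the 5 genes most correlated with Hbb-bs and with the sum of Hbb-y and Hbb-bh1, of which 1 for Hbb-bs is not reported here. List genes outside this rule were named after their values were seen. Fits were tested on simulated counts with 200 genes changed by 1 on the log2 scale, and the share of changed genes called was 1.68% in erythroid cells, 28.1% in red-cell barcodes, 60.6% in other cells and 68.8% over all barcodes. Alternatives were other scalings, no filter on low counts, a sex covariate, a replicate block, other limits for each class and leaving out each library. Erythroid sums without the largest cell of each library were added after the data were seen.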

Additional observations from a re-analysis of the deposited data

How the results depend on the processing

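With 5 libraries, 63 erythroid cells and 4 embryonic UMIs in them, only large differences could be called. Calls were 0 in erythroid cells, 63 in red-cell barcodes, 650 in other cells and 633 over all barcodes. With DESeq2 they were 3 in erythroid cells, 2070 in other cells and 2129 over all. Library size alone gave 5 in erythroid cells and 8 in red-cell barcodes, scaling on genes other than globins 4 in erythroid cells, and no filter on low counts 24 and 320. With sex as a covariate, which sets KO3 alone against the Het libraries, fewer genes were called in red-cell barcodes, in other cells and over all. Leaving out 1 library gave 0 to 1, 0 to 231, 2 to 848 and 2 to 967 calls in that order of classes, lowest without a Het library except in erythroid cells.

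With the replicate block there were 5, 257, 9 and 9 calls in the same order of classes, and no member was called. Whether the numbers pair the samples is not known, so this says nothing of a weaker effect.

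Fold changes of Hba-a1, Hba-a2, Hbb-bs and Hbb-bt in erythroid cells turned positive without the filter (0.25, 0.12, 0.42 and 0.56 on the log2 scale), with at least 8 markers (0.56, 0.45, 0.53 and 0.72) and with at least 500 genes and over 50% haemoglobin UMIs (0.25, 0.22, 0.26 and 0.49). Without the largest cell of each library, added after the data were seen, they were 0.65, 0.44, 1.27 and 1.18, with 3 genes called. With at least 3 markers Hbb-bs had 0.036 and Hbb-bt 0.16, and Hbb-bt ran from -0.94 to 0.16 when 1 library was left out. In red-cell barcodes Hbb-bt was 0.10 with library size alone, and Hba-x and Hbb-y were -0.029 and -1.53 with sex as a covariate. Leaving out 1 library gave -0.46 to 1.84 for Hba-x, -0.52 to 0.066 for Hbb-bt, -1.92 to 2.27 for Hbb-bh1 and -1.06 to 2.78 for Hbb-y there. With the sex covariate Hba-x was -0.18 in other cells, and over all barcodes Hba-x was -0.34 and Hbb-y -0.62.

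Among ratios, the genotype difference of Hbb-bh1 and Hbb-y in erythroid cells was -0.00259 percentage points with the rule on haemoglobin UMIs, and that of the Hbb-bs share 3.19 without the largest cells. The class difference of the Hba-a1 share was 1.79 with at least 8 markers and 0.28 with that rule, and that of the alpha share was -0.204 with it. Leaving out 1 library gave genotype differences of -0.663 to 3.30 (Hba-a1 share, erythroid cells), -0.826 to 1.59 (Hba-a1 share, red-cell barcodes), -0.000824 to 0.0172 (Hbb-bh1 and Hbb-y share, red-cell barcodes) and -0.0195 to 0.0936 (barcodes rich in embryonic globins). The cause was not tested for any of these. Of 557 values computed, 30 fold changes of members and 9 other values changed sign.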
